A study of Mus musculus with 18 samples.

Results

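The comparison described here is that of synovial LYVE1+CX3CR1+ macrophages taken 8 h after an intravenous injection of immune complexes (IC) with the same subset from untreated mice. Its 6 libraries, 3 for IC and 3 for no treatment, are those the sample labels assign to this subset, out of 18 bulk RNA-seq libraries in all. The macrophages were sorted as MHCII-, Ly6C-, LYVE1+ and CX3CR1+ cells from the synovium of wild-type C57BL/6 mice of both sexes aged 8 to 20 weeks. Cells from the 6 legs of 3 mice were combined for every library, so the spread between replicates is a spread between pools and not between single animals. IC were fluorescent ovalbumin bound by a rabbit anti-ovalbumin antiserum, and the labels name no injection for the controls, which are called healthy, so the response to IC cannot be told apart from a response to the injection itself. The other 12 libraries are MHCII+CD11c- and MHCII+CD11c+ synovial macrophages from the same kind of mice, 3 untreated and 3 IC libraries for each subset, and serve here only for comparison.

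LYVE1+CX3CR1+ macrophages are of the kind described as lining macrophages, which border the joint cavity. IgG bound in IC is recognised by Fcγ receptors, of which the activating members signal through the common γ-chain FcRγ (Fcer1g) and the inhibitory member, FcγRIIB (Fcgr2b), dampens that signal. Receptor engagement can lead to uptake of the complex and to the release of chemokines and cytokines that recruit leukocytes.

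The 6 libraries held 1509070 to 2047260 counts, which puts a floor of 3 counts at 1.43 to 2.01 CPM (counts scaled to a common library size with TMM factors). Between 11913 and 13158 genes had at least 1 count, and 10550 genes passed the filter on low counts and were tested. Lyve1, the hyaluronan receptor that names the subset, lay at 2162 to 2551 CPM in the untreated and 3156 to 3537 CPM in the IC libraries (edgeR adjusted p = 0.672). The fractalkine receptor gene Cx3cr1 lay at 705 to 826 CPM and 693 to 774 CPM (edgeR adjusted p = 0.972), and the complement receptor gene Vsig4 at 1308 to 1793 CPM and 1735 to 2096 CPM (edgeR adjusted p = 0.745). H2-Aa, which encodes an MHC class II chain, did not exceed 6.82 CPM in these 6 libraries against at least 1381 CPM in the MHCII+ subsets, and Ly6c2 did not exceed 2.39 CPM. All 6 libraries thus carried the markers of the labelled gate.

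With IC, 49 of the 10550 genes changed (0.464%, edgeR quasi-likelihood test at an adjusted p of 0.05), 26 rising (0.246%) and 23 falling (0.218%). The genes that rose encoded an inhibitory and an activating Fc receptor, 2 MS4A proteins, the chemokines CCL6 and CCL9, interleukin-1β, chaperones of the endoplasmic reticulum (ER) and cytosol, and the lipid exporter ABCG1. Those that fell included the sterol regulator Srebf2, the clock repressor Nr1d1, the nuclear transcripts Malat1 and Neat1 and the myelin gene Mbp. The log2 fold change was at least 1 in size for 34 of them (18 up and 16 down), and the largest rise among them was 1.90 for Ms4a6d. In bulk RNA, fewer cells of a type and less RNA per cell cannot be told apart. The median log2 fold change over all tested genes was -0.02, and 919 genes had an unadjusted p under 0.05.

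**Figure D1:**
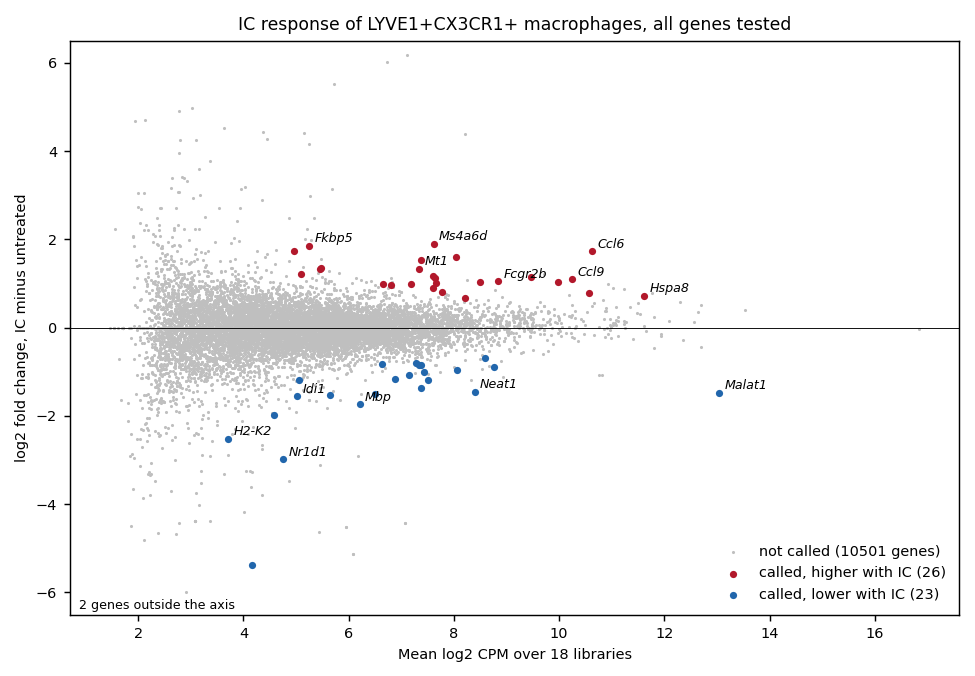
Response of LYVE1+CX3CR1+ macrophages to IC. Each point is 1 of the 10550 tested genes, with its mean log2 CPM on the horizontal axis and its log2 fold change (IC minus untreated) on the vertical axis; 2 genes lie outside the axes. The 26 called genes that rose and the 23 that fell are coloured, with Ms4a6d at 1.90 and Nr1d1 at -2.98.

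The 3 untreated and the 3 IC libraries did not overlap for 48 of the 49 genes, the exception being Ifi27l2a. Over all tested genes this held for 2011 (19.1%), of which those higher with IC made up 9.57% and those lower 9.49% of the genes tested. IC library 1 was the highest of the IC libraries for 20 of the 26 genes that rose, whereas IC library 3 was the lowest for 23 of them. When each of the 6 libraries was left out in turn, between 13 (without IC library 1) and 53 (without IC library 3) genes were called, with 20, 17 and 21 called without untreated libraries 1, 2 and 3 and 20 without IC library 2. In all, 11 genes were called in each of these 6 fits, among them Ms4a6d, Ccl6, Wfdc17, Hspa5, Malat1, Fcgr2b, Nr1d1, Sema4a, Xdh and Ccl9. The other 38 lost the call in at least 1 of them, and none of the 49 changed direction.

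**Figure D2:**
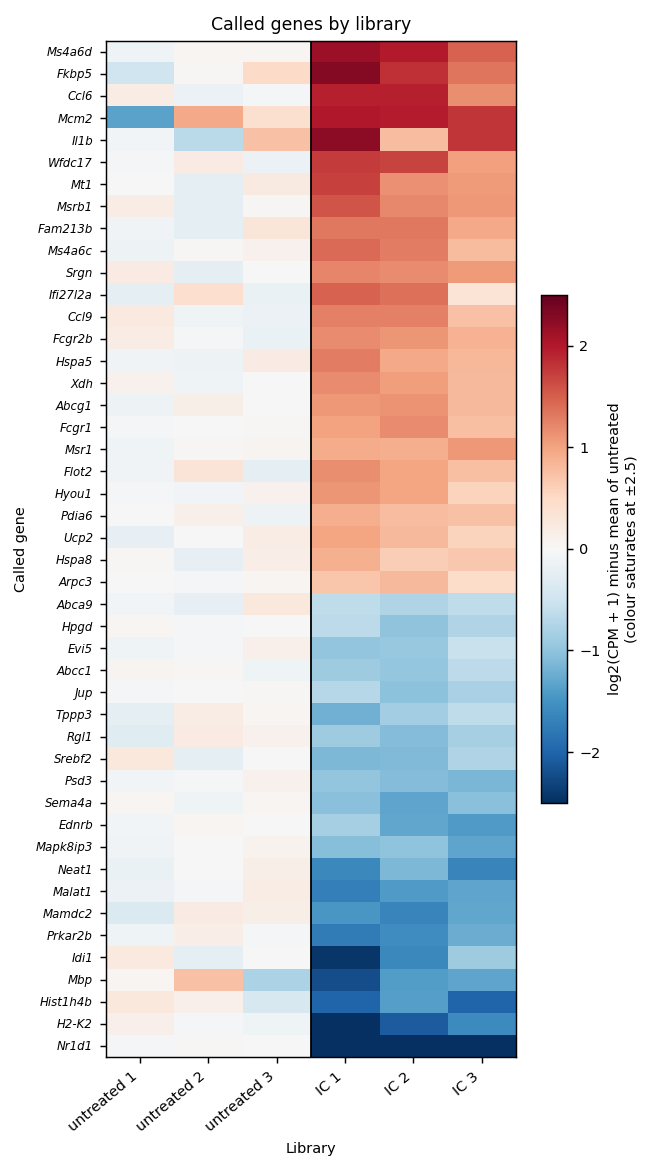
Levels of 46 of the 49 called genes in the 6 LYVE1+CX3CR1+ libraries. Rows are genes, columns are libraries, and the colour gives log2(CPM + 1) minus the mean of the gene's untreated libraries, red for higher and blue for lower. The 25 genes shown that rose are red in the IC libraries and the 21 that fell are blue, and IC library 3 is the palest for most of the former.

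Of the 7 genes for Fc receptors of IgG and their signalling subunit, all tested, 2 rose and none fell. Over all tested genes 0.246% rose and 0.218% fell. Fcgr2b (chr1:170960558-170976071, GRCm38), which encodes the inhibitory receptor FcγRIIB, stood at 289, 249 and 227 CPM in untreated libraries 1 to 3 and at 575, 545 and 467 CPM in IC libraries 1 to 3. All IC libraries exceeded all untreated ones, with a log2 fold change of 1.05 (SE 0.16, edgeR adjusted p = 0.00102). Fcgr1, which encodes the high-affinity activating receptor FcγRI, stood at 57.1, 58.6 and 60.0 CPM and at 118, 133 and 98.9 CPM. Its groups were also separate (log2 fold change 0.99, SE 0.21, edgeR adjusted p = 0.0215), but the call held only without IC library 3 among the 6 fits that leave out a library, with adjusted p up to 0.171 in the others.

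The low-affinity activating receptor gene Fcgr3 was at 419.6, 429 and 418 CPM without treatment and at 446, 446 and 444 CPM with IC. These values were separate, but the difference was small (log2 fold change 0.08, edgeR adjusted p = 0.958). Fcer1g, the shared γ-chain, measured 287, 292 and 281 CPM against 382, 388 and 367 CPM, a log2 fold change of 0.40 that did not pass the test (edgeR adjusted p = 0.314). Fcgr4, another activating receptor, was close to the floor, at 0, 1.87 and 0.54 CPM and at 3.93, 4.20 and 1.91 CPM (edgeR adjusted p = 0.452). Fcgrt, which encodes the neonatal receptor that recycles IgG, and the cytosolic antibody receptor gene Trim21 did not pass the test either (edgeR adjusted p = 0.623 and 0.972). All 7 genes were fitted higher with IC, with a median log2 fold change of 0.40 against -0.02 for all tested genes, of which 47.5% were fitted higher. Fcgr2b, Fcgr3 and Fcgr4 are close in sequence and their reads can be split unevenly by counting. Of 29 tested genes for Fc receptor signalling, such as the kinases Syk and Lyn and the phosphatase gene Inpp5d, none was called. The kinase gene Fgr came closest, at 40.3, 18.7 and 28.9 CPM against 66.2, 66.6 and 58.8 CPM (log2 fold change 1.13, edgeR adjusted p = 0.0878).

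The lowest adjusted p of the comparison belonged to Ms4a6d (chr19:11586606-11604804, GRCm38), a member of the MS4A family of multi-pass membrane proteins. It was at 103, 115 and 115 CPM in the untreated libraries and at 492, 443 and 308 CPM in the IC libraries. The lowest IC library was thus well above the highest untreated one (log2 fold change 1.90, SE 0.21, edgeR adjusted p = 1.52e-05). Ms4a6c, of the same gene cluster, went from 122, 136 and 145 CPM to 357, 325 and 232 CPM, again without overlap (log2 fold change 1.18, SE 0.21, edgeR adjusted p = 0.0052). The call of Ms4a6c was lost without untreated library 1 or IC library 1 (adjusted p up to 0.0652). Ms4a6b was at 76.5, 121 and 115 CPM and at 249, 197 and 153 CPM, which did not pass the test (log2 fold change 0.93, edgeR adjusted p = 0.121). Ms4a7, at 50.9 to 78.0 CPM and 65.5 to 80.3 CPM, overlapped between groups. Of 8 tested family members 2 rose and none fell, against 0.246% rising and 0.218% falling over all tested genes. The Ms4a6 genes are near-identical in parts, so the division of reads among them is uncertain.

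Scavenger receptors take up modified lipoproteins and other polyanionic ligands. Of 29 tested genes for scavenger and phagocytic receptors 1 rose, against 0.246% of all tested genes: Msr1, which encodes scavenger receptor A. It lay at 124, 137 and 139 CPM without treatment and at 255, 252 and 282 CPM with IC. The IC libraries were close to each other and far from the untreated ones (log2 fold change 0.98, SE 0.19, edgeR adjusted p = 0.0153), although the call was kept only without IC library 2 among the leave-one-out fits (adjusted p up to 0.126). The mannose receptor gene Mrc1 was at 1061 to 1296 CPM and 1738 to 1956 CPM (log2 fold change 0.63, edgeR adjusted p = 0.121), and the haemoglobin receptor gene Cd163 at 485 to 916 CPM and 985 to 1503 CPM (log2 fold change 0.74, edgeR adjusted p = 0.351). Neither overlapped between groups and neither passed the test.

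**Figure D3:**
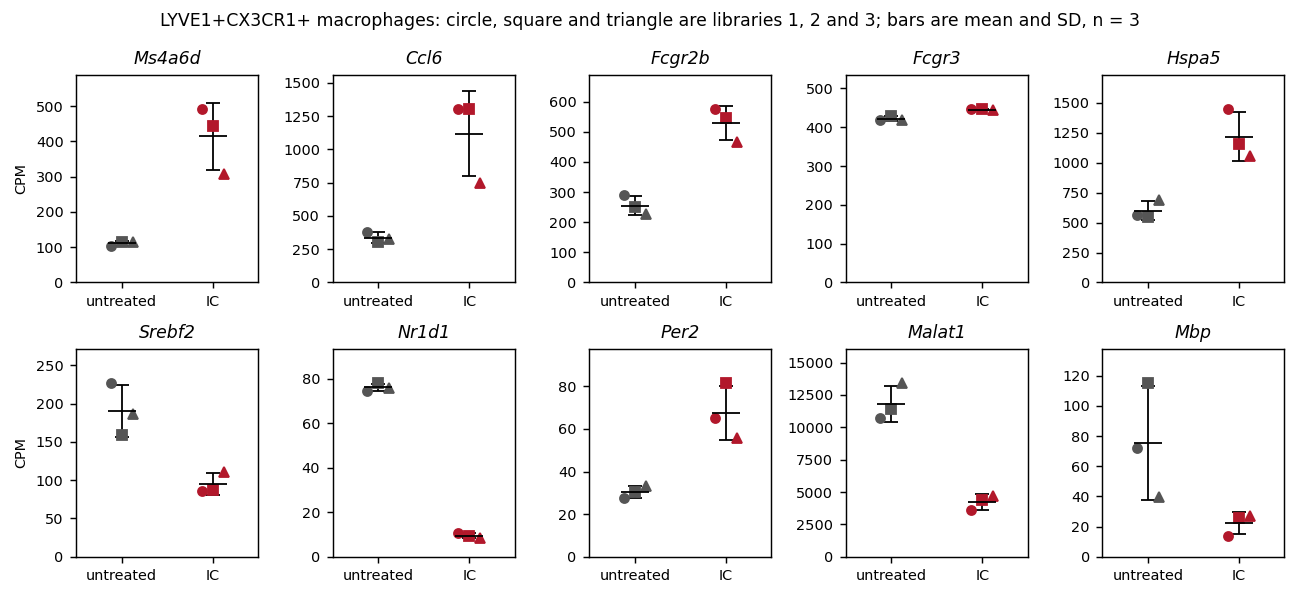
CPM of selected genes in each LYVE1+CX3CR1+ library. Each panel is 1 gene, with libraries 1, 2 and 3 of each group as circle, square and triangle and the mean and SD (n = 3) as lines; every vertical axis starts at 0. Fcgr2b reads 227 to 289 CPM without treatment and 467 to 575 CPM with IC, whereas Fcgr3 reads 418 to 429 CPM and 444 to 446 CPM.

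Among 12 tested CC chemokines 2 rose, against 0.246% of all tested genes, and both were abundant in this subset. Ccl6 (chr11:83587886-83593087, GRCm38), a chemoattractant of myeloid cells, was at 383, 304 and 326 CPM without treatment and at 1301, 1303 and 752 CPM with IC. The groups were far apart even for IC library 3 (log2 fold change 1.73, SE 0.21, edgeR adjusted p = 4.91e-05). Ccl9, its neighbour on chromosome 11 and also a ligand for myeloid cells, was at 696, 550.2 and 534 CPM and at 1405, 1413 and 978 CPM (log2 fold change 1.09, SE 0.19, edgeR adjusted p = 0.00441). The monocyte chemoattractant gene Ccl2 gave the values 86.6, 139.7 and 110.4 CPM against 77.4, 49.8 and 84.6 CPM and did not pass the test (log2 fold change -0.67, edgeR adjusted p = 0.436). Ccl3, Ccl4 and Ccl7 overlapped between groups, and Ccl5, Ccl8, Ccl12, Ccl17 and Ccl22 were at or near 0. The eosinophil attractant gene Ccl24 was at 40.2 to 45.5 CPM and 19.6 to 36.2 CPM (edgeR adjusted p = 0.648).

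None of the 9 tested CXC chemokine genes was called. Cxcl1 and Cxcl2, ligands that attract neutrophils, lay at 15.4 to 48.2 CPM and 40.9 to 80.3 CPM (log2 fold change 1.02, edgeR adjusted p = 0.477) and at 219.5 to 261 CPM and 249 to 419 CPM (log2 fold change 0.46, edgeR adjusted p = 0.498). Both overlapped between groups. Wfdc17, a small secreted protein with a whey acidic protein domain, was at 123.5, 146 and 114 CPM and at 429, 413 and 259.9 CPM. It rose without overlap (log2 fold change 1.52, SE 0.22, edgeR adjusted p = 0.000724).

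Of 23 tested genes of interleukin-1, tumour necrosis factor and the inflammasome 1 rose, against 0.246% of all tested genes: Il1b, which encodes the cytokine interleukin-1β. It was at 23.5, 14.97 and 41.8 CPM without treatment and at 119, 42.5 and 87.0 CPM with IC. IC library 2 exceeded untreated library 3 by little, so the groups were barely separate (log2 fold change 1.61, SE 0.37, edgeR adjusted p = 0.0452). The call was lost without untreated library 1 or 2 or IC library 1 or 3 (adjusted p up to 0.425). Tnf was at 148, 192 and 229 CPM and at 327, 209 and 251 CPM, with overlap (edgeR adjusted p = 0.627). Il1a, Il6, Nlrp3 and Casp1 overlapped between groups as well. The interferon-stimulated gene Ifi27l2a rose from 143, 225 and 150.0 CPM to 473, 439 and 214 CPM (log2 fold change 1.12, SE 0.26, edgeR adjusted p = 0.0452), with IC library 3 below untreated library 2. Its adjusted p reached 0.375 when 1 library was left out, and the call held only without untreated library 2 or IC library 3. It was the only called gene of 37 tested interferon-stimulated genes, against 0.464% called over all tested genes.

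Chaperones and folding enzymes of the ER assist secreted and membrane proteins, and their genes are known to be induced together by the unfolded protein response through the transcription factors ATF6 and XBP1. Of 31 tested genes of this class 3 rose, none fell, and 28 were fitted higher with IC. Their median log2 fold change was 0.42 against -0.02 for all tested genes, and 19 lay higher in every IC library than in every untreated one, with none lower in every IC library. Over all tested genes 9.57% were higher and 9.49% lower in this way, 0.246% rose and 47.5% were fitted higher. Hspa5 (chr2:34772090-34776529, GRCm38), which encodes the chaperone BiP, was at 561, 544 and 691 CPM and at 1448, 1154 and 1054 CPM. Every IC library lay well above every untreated one (log2 fold change 1.02, SE 0.15, edgeR adjusted p = 0.000986). Hyou1, an ER chaperone of the HSP70 class, was at 109, 108 and 121 CPM and at 242, 224 and 167 CPM (log2 fold change 0.90, SE 0.17, edgeR adjusted p = 0.00995). The disulfide isomerase gene Pdia6 was at 128, 141 and 119 CPM and at 243.5, 219.8 and 216 CPM (log2 fold change 0.81, SE 0.16, edgeR adjusted p = 0.0154). Hyou1 kept its call only without untreated library 3 or IC library 3 (adjusted p otherwise up to 0.102), and Pdia6 only without IC library 3 (up to 0.126).

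Creld2, Sdf2l1 and Manf, which encode further ER proteins of this response, had log2 fold changes of 1.11, 0.85 and 0.80, and Pdia4 and Dnajb11 of 0.71 and 0.73. None of these 5 passed the edgeR test (edgeR adjusted p = 0.263, 0.193, 0.137, 0.137 and 0.153), although their groups did not overlap. DESeq2 called Manf, Pdia4 and Dnajb11 among them (DESeq2 adjusted p = 0.0258, 0.0206 and 0.0237). It called 8 of the 31 genes of the class higher and none lower. Canx, Derl1, Edem1 and Hspa13 overlapped between groups. No sensor or transcription factor of the unfolded protein response was called among 12 tested: Xbp1 lay at 158 to 185 CPM and 178 to 213 CPM, Atf4 at 128 to 232 CPM and 197 to 218 CPM, and Ddit3 at 10.7 to 23.7 CPM and 6.82 to 23.4 CPM. Among 29 tested genes of secretory transport none was called. Of these, 26 were fitted higher (median log2 fold change 0.20), against 47.5% of all tested genes.

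The ER stress element, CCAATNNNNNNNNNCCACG, is the sequence through which ATF6 is known to act with the CCAAT-binding factor NF-Y. It was searched on both strands of the 250 bases upstream of each annotated start (RefSeq, GRCm38.p6) and was found in 0.113% of 32851 promoters. Of the 35 genes on the ER chaperone list 30 had a promoter in the table, and 10 of these held the element: Hspa5, Hsp90b1, Dnajc3, Creld2, Calr, Canx, Pdia6, Ero1b, Syvn1 and Derl3. Of these genes, Hspa5 and Pdia6 rose, and Canx had a log2 fold change of 0.06, so the element was shared by genes with and without a change. The shorter ATF6/XBP1 core TGACGTG was in 1.65% of all promoters and in 4 of the 30. Each match is a description of letters and not a measured binding site.

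The upstream sequences of Pdia6 (chr12:17266339-17266544, plus strand), Creld2 (chr15:88819396-88819645, plus strand) and Hsp90b1 (chr10:86705510-86705694, minus strand) show how the element sits in genes that were high in every IC library. They read 5′ to 3′ along the gene, end before the annotated transcripts, and have the element in capitals. In Creld2 and in the second copy of Hsp90b1 it lies on the opposite strand and therefore reads as its reverse complement.
Pdia6: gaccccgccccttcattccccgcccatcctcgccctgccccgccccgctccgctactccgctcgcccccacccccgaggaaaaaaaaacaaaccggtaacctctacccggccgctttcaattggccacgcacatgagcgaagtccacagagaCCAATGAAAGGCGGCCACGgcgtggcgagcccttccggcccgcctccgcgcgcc
Creld2: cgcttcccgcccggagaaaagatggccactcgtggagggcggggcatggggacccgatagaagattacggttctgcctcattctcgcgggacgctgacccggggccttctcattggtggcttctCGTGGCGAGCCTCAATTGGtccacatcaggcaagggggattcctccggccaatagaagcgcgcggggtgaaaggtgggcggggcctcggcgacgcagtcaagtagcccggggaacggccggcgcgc
Hsp90b1: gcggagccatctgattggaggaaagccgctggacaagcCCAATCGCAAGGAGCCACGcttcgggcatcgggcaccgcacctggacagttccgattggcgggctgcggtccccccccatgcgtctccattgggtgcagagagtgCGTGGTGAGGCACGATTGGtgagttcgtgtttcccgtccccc

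The element of Hspa5 lies 65 bases upstream of the start (chr2:34772025-34772043) and is shown with those of Dnajc3 and Calr, with the fixed letters in capitals.
Hspa5: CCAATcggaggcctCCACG
Dnajc3: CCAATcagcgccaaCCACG
Calr: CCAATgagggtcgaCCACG

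Dnajc3 and Calr had log2 fold changes of 0.45 and 0.52 (edgeR adjusted p = 0.5 and 0.163), and Hsp90b1, at 549.8, 519.6 and 572 CPM against 870.3, 748 and 844 CPM, of 0.58 (edgeR adjusted p = 0.197).

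Cytosolic heat shock chaperones fold proteins outside the secretory route. Of 25 tested genes 1 rose, none fell and 22 were fitted higher (median log2 fold change 0.30). Over all tested genes 0.246% rose and 47.5% were fitted higher. Hspa8, the constitutive HSP70, was at 2101, 1790 and 2328 CPM and at 3811, 3141 and 3277 CPM. All IC libraries were above all untreated ones (log2 fold change 0.72, SE 0.15, edgeR adjusted p = 0.0175), and the call was lost without untreated library 1 or 2 or IC library 1 (adjusted p up to 0.158). The stress-induced genes Hspa1a and Hspa1b, near-identical copies, had log2 fold changes of 0.88 and 0.91 (edgeR adjusted p = 0.171 and 0.173). The heat shock genes belong in part to the set known to be induced when tissue is dissociated. In that set, Fos lay at 3342 to 3561 CPM and 3797 to 4421 CPM and Jun at 1837 to 1963 CPM and 1780 to 2386 CPM, 17 of 19 genes were fitted higher and Hspa8 alone was called. The summed level of the set was 21920 to 26320 CPM without treatment and 25490 to 34580 CPM with IC, and its part in the chaperone values was not tested.

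Cells make cholesterol through a pathway that SREBP2 (Srebf2) switches on when sterols are low. Of 25 tested genes of sterol synthesis and uptake 3 fell, none rose and 23 were fitted lower. The median log2 fold change was -0.75, and 12 genes were lower in every IC library than in every untreated one, with none higher. Over all tested genes 9.49% were lower and 9.57% higher in this way, 0.218% fell and 51.9% were fitted lower. Srebf2 was at 226, 158 and 187 CPM and at 86.4, 87.1 and 111 CPM (log2 fold change -1.004, SE 0.22, edgeR adjusted p = 0.0303). Idi1, an isomerase of the isoprenoid pathway, was at 59.1, 42.4 and 49.3 CPM and at 8.42, 15.7 and 26.3 CPM (log2 fold change -1.56, SE 0.36, edgeR adjusted p = 0.0452). Srebf2 and Idi1 were called only without IC library 3 among the leave-one-out fits, with adjusted p up to 0.26 and 0.425 otherwise.

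Other enzymes of the pathway had values in the same direction that did not pass the test. Cyp51, the lanosterol demethylase gene, was at 57.1, 53.0 and 70.2 CPM and at 15.7, 15.2 and 39.2 CPM (log2 fold change -1.35, edgeR adjusted p = 0.0688). Fdft1 and Stard4 had log2 fold changes of -1.29 and -1.21 (edgeR adjusted p = 0.242 and 0.428). Dhcr7, Mvd, Mvk and Pmvk overlapped between groups. The sterol element TCACNCCAC was in 1 of 19 promoters of the list, that of Hmgcs1, and in 1.05% of all promoters.

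Liver X receptors are activated by oxysterols and drive lipid export. Of 12 tested targets and lipid transporters 1 rose and 1 fell, against 0.246% rising and 0.218% falling over all tested genes. Abcg1, a cholesterol exporter gene, was at 107, 129.8 and 116 CPM and at 250.3, 255 and 207 CPM (log2 fold change 1.01, SE 0.22, edgeR adjusted p = 0.0267). Abca9, a transporter gene of the ABCA family, was at 465, 424 and 583.5 CPM and at 315, 288.5 and 312 CPM (log2 fold change -0.69, SE 0.15, edgeR adjusted p = 0.0267). The IC libraries of each gene were close to each other and apart from the untreated ones. Abcg1 kept its call only without IC library 3 (adjusted p otherwise up to 0.177) and Abca9 only without untreated library 2 (up to 0.283). Mylip, a ubiquitin ligase gene, was at 73.8, 89.2 and 106 CPM and at 174.5, 152 and 126 CPM (log2 fold change 0.75, edgeR adjusted p = 0.153), and Abca1 had a log2 fold change of 0.34 (edgeR adjusted p = 0.651). Lpl, the lipoprotein lipase gene, was lower, at 61.8, 38.7 and 42.3 CPM and at 11.8, 18.4 and 31.5 CPM (log2 fold change -1.18, edgeR adjusted p = 0.153). Of the 12 genes, 7 were fitted higher and 5 lower. Their groups were separate and higher with IC for 6, and lower for 3. None of 11 tested genes of fatty acid synthesis was called.

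**Figure D4:**
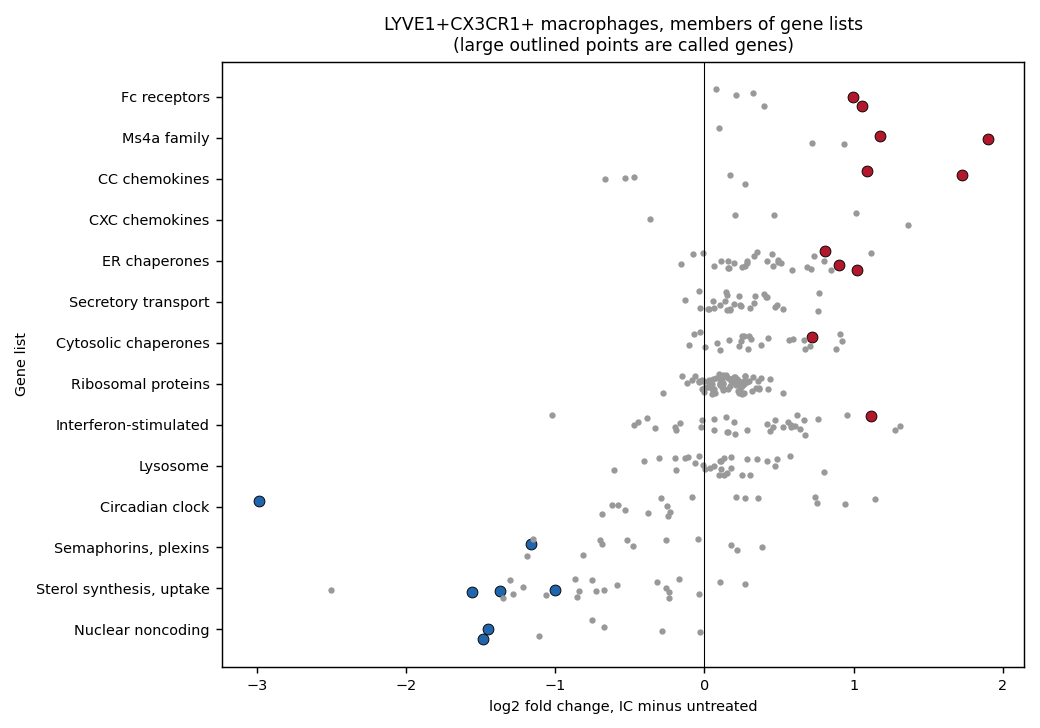
Log2 fold changes (IC minus untreated) of the members of 14 gene lists in LYVE1+CX3CR1+ macrophages. Each point is a tested member, large and coloured where it was called, and 18 of 331 members under a mean of 5 CPM are left out. The medians of all tested members were 0.42 for ER chaperones, 0.30 for cytosolic chaperones and -0.75 for sterol genes, against -0.02 for all tested genes.

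Nr1d1 (chr11:98767932-98775377, GRCm38) encodes REV-ERBα, the repressor that closes a loop of the circadian clock by acting on Arntl. It was at 74.5, 78.0 and 76.1 CPM without treatment and at 10.7, 9.44 and 8.60 CPM with IC. The libraries of each group lay very close together and the groups far apart (log2 fold change -2.98, SE 0.48, edgeR adjusted p = 0.00181). It was the only called gene of 18 tested clock genes, against 0.464% called over all tested genes. Per2, a repressor of the loop, was at 27.5, 30.6 and 33.2 CPM and at 65.1, 81.3 and 55.9 CPM without passing the test (log2 fold change 1.14, edgeR adjusted p = 0.0696). Arntl and Per1 had log2 fold changes of -0.62 and -0.54 (edgeR adjusted p = 0.548 and 0.325), and the related repressor gene Nr1d2 of -0.58 (edgeR adjusted p = 0.692), each with groups that did not overlap. The hour of day at which the mice were killed is not given in the sources used here, and its part in these values was not tested.

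Fkbp5, which encodes an immunophilin that responds to glucocorticoids, rose from 10.1, 14.97 and 20.9 CPM to 75.8, 54.6 and 38.7 CPM (log2 fold change 1.85, SE 0.37, edgeR adjusted p = 0.0162). It was the only called gene of 19 tested glucocorticoid targets, against 0.464% called over all tested genes. Tsc22d3 and Dusp1, further targets, had log2 fold changes of 0.29 and 0.17 (edgeR adjusted p = 0.833 and 0.811), and the receptor gene Nr3c1 was at 172 to 229 CPM and 120.1 to 145 CPM (log2 fold change -0.66, edgeR adjusted p = 0.166). The call of Fkbp5 held only without untreated library 3 or IC library 3, with adjusted p up to 0.158 in the other fits. Metallothioneins bind zinc and copper. Mt1 was at 77.2, 65.5 and 89.5 CPM and at 253, 171.5 and 161 CPM, with no overlap (log2 fold change 1.33, SE 0.23, edgeR adjusted p = 0.0043), and lost its call without untreated library 2 or IC library 1 (adjusted p up to 0.0748). Its paralogue Mt2 had a log2 fold change of 1.05 that did not pass the test (edgeR adjusted p = 0.413).

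Malat1 and Neat1 are long noncoding transcripts that stay in the nucleus, Neat1 as the scaffold of paraspeckles, and lie next to each other on chromosome 19. Malat1 was among the most abundant transcripts, at 10690, 11400 and 13380 CPM without treatment and 3580, 4397 and 4717 CPM with IC. The groups were widely separate (log2 fold change -1.48, SE 0.23, edgeR adjusted p = 0.00102). Neat1 was at 330.3, 369.9 and 409 CPM and at 121, 168 and 117 CPM (log2 fold change -1.45, SE 0.25, edgeR adjusted p = 0.00441), a call that was lost without IC library 1 (adjusted p = 0.0652). The gene list that holds them is wider than this class. Its 7 tested members were all fitted lower (median log2 fold change -0.76), against 51.9% of all tested genes. They include the ribosomal RNA precursor Rn45s, with a log2 fold change of -0.03 (edgeR adjusted p = 0.997). Gas5 and Snhg1 had log2 fold changes of -0.28 and -0.67 (edgeR adjusted p = 0.832 and 0.901). Kcnq1ot1 was at 23.7 to 24.7 CPM and 4.72 to 16.3 CPM and Xist at 479.7 to 582 CPM and 313.5 to 321.5 CPM, both without overlap and without passing the test (edgeR adjusted p = 0.403 and 0.241). Mice of both sexes were used, and the part of the sex of the pooled mice in the Xist values was not tested. With Malat1 and the ribosomal RNA precursor Rn45s taken out of the library totals, 49 genes were called, 27 rising and 22 falling.

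Xdh, which encodes the xanthine dehydrogenase that makes uric acid, rose from 318, 274.5 and 296 CPM to 676, 614 and 517.5 CPM (log2 fold change 1.02, SE 0.17, edgeR adjusted p = 0.00222). It was the called member of 15 tested genes of purine turnover, against 0.464% called over all tested genes, and was separate between groups. Sema4a, a membrane-bound semaphorin gene, fell from 55.7, 49.3 and 55.7 CPM to 25.3, 21.0 and 25.3 CPM (log2 fold change -1.16, SE 0.19, edgeR adjusted p = 0.00222). It was the called member of 15 tested semaphorins, plexins and neuropilins, against 0.464% called over all tested genes. Of the 15, 11 were fitted lower, against 51.9% of all tested genes. Plxna4, a semaphorin co-receptor gene, was at 113, 105 and 80.9 CPM and at 34.2, 44.6 and 51.6 CPM (log2 fold change -1.19, edgeR adjusted p = 0.0667).

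Further genes rose. Srgn, which encodes the granule proteoglycan serglycin, was at 649.8, 486 and 568.5 CPM and at 1312, 1276 and 1185 CPM, an even rise in all IC libraries (log2 fold change 1.147, SE 0.23, edgeR adjusted p = 0.0153). Ucp2, an uncoupling protein gene of mitochondria, was at 1107 to 1453 CPM and 1869 to 2531 CPM (log2 fold change 0.79, edgeR adjusted p = 0.0418), and Arpc3, a subunit gene of the actin-nucleating ARP2/3 complex, at 256 to 275 CPM and 365.5 to 467 CPM (log2 fold change 0.66, edgeR adjusted p = 0.0317). Mcm2, a helicase gene of DNA replication, was at 2.01, 13.7 and 9.11 CPM and at 29.7, 28.9 and 25.3 CPM (log2 fold change 1.73, edgeR adjusted p = 0.0452). It was the only 1 called of 26 tested cell cycle genes, against 0.464% called over all tested genes. Msrb1, Fam213b and Flot2, with roles in methionine sulfoxide reduction (Msrb1) and membrane microdomains (Flot2), had log2 fold changes of 1.33, 1.21 and 0.97. Srgn kept its call only without untreated library 1 or IC library 3 (adjusted p otherwise up to 0.12). Ucp2, Arpc3, Fam213b and Flot2 kept theirs only without IC library 3 (up to 0.3). Mcm2, at the floor of 3 counts in untreated library 1, kept its call only without untreated library 2 (up to 0.23).

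Further genes fell. Prkar2b, a regulatory subunit gene of protein kinase A, was at 87.3, 106 and 91.6 CPM and at 27.5, 31.5 and 39.7 CPM (log2 fold change -1.52, SE 0.35, edgeR adjusted p = 0.0443). Mamdc2 was at 101, 150.3 and 145 CPM and at 47.1, 40.9 and 52.6 CPM (log2 fold change -1.50, SE 0.28, edgeR adjusted p = 0.00986). The groups were well apart in both. Ednrb, the endothelin receptor type B gene, fell from 100, 108.5 and 104.5 CPM to 58.4, 42.0 and 38.2 CPM (log2 fold change -1.18, SE 0.27, edgeR adjusted p = 0.0429). Hpgd, which encodes the prostaglandin-degrading dehydrogenase, was at 322 to 344 CPM and 166 to 211 CPM (log2 fold change -0.81, edgeR adjusted p = 0.0491), and Jup, the gene for the junction protein plakoglobin, at 168.5 to 175 CPM and 83.4 to 104 CPM (log2 fold change -0.85, edgeR adjusted p = 0.0162). Psd3, Rgl1, Evi5, Tppp3, Abcc1 and Mapk8ip3 fell by log2 fold changes between -0.82 (Evi5) and -1.18 (Mapk8ip3). The low-level genes Hist1h4b and H2-K2 fell by more (-1.99 and -2.52), but both have close copies in the genome. Psd3, Ednrb, Mapk8ip3, Prkar2b, Msrb1 and Hpgd lost the call in each of the 6 fits that left out a library. Jup, Evi5, Abcc1 and H2-K2 kept it only without IC library 3 (adjusted p otherwise up to 0.3). Mamdc2, Rgl1 and Tppp3 kept it only without untreated library 1 or IC library 3 (up to 0.3). Hist1h4b kept it only without untreated library 3 or IC library 2 (up to 0.175).

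Myelin genes are expressed by Schwann cells, which wrap peripheral nerves, and serve here as markers of nerve RNA. Mbp, a myelin gene that other cells also express, was at 71.8, 115 and 39.7 CPM and at 14.03, 25.7 and 27.2 CPM, without overlap between the groups (log2 fold change -1.74, SE 0.31, edgeR adjusted p = 0.0059). Prx was at 31.6, 23.7 and 6.97 CPM and at 1.12, 2.10 and 1.91 CPM (edgeR adjusted p = 0.213), while Sox10, a defining transcription factor of these cells, did not exceed 1.25 CPM in any library. The summed level of the 11 Schwann cell markers, most of it Pmp22, was 667 to 936 CPM and 654 to 672 CPM. Of the 7 tested 2 fell, against 0.218% of all tested genes. The part of nerve tissue in the fall of Mbp was not tested. The call of Mbp was lost without untreated library 2 or IC library 1 (adjusted p up to 0.0875).

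No marker of the other 12 cell lists was called by edgeR, whereas DESeq2 called 1 neutrophil marker higher and 1 B cell marker lower. The summed level of monocyte markers was 3845 to 5863 CPM without treatment and 5984 to 7641 CPM with IC. That of dendritic cell markers was 73.0 to 84.6 CPM and 41.6 to 46.6 CPM, and that of B cell markers 19.3 to 23.5 CPM and 5.26 to 12.9 CPM. The part of a changed mix of cells in these values was not tested. Single libraries also stood apart. The summed level of 17 neutrophil genes was 209.8 CPM in IC library 2 and 19.6 to 28.4 CPM in the other 5, with Ngp at 34.6 CPM there and at 0 elsewhere; Elane and Mpo were at 0 throughout. Without that library 20 genes were called. Globin and other erythroid transcripts reached 1145 CPM in untreated library 2 and at most 37.0 CPM in the other libraries. The lubricin gene Prg4, made by lining fibroblasts, was at 599 CPM in untreated library 1 and at 5.61 to 42.5 CPM elsewhere. The T cell genes Cd3d, Cd3e and Cd3g and the B cell genes Cd79b and Pax5 were at 0 in all 6 libraries. Other members of both lists were not, and only 4 of 8 B cell genes were at 0 throughout. The T and NK cell markers summed to 3.75 to 13.4 CPM without treatment and 4.49 to 5.73 CPM with IC. Col1a1 and Col3a1 were highest in IC library 3, at 31.1 and 32.0 CPM.

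Several gene groups that could take part in the handling of IC showed no called member in the edgeR test. With 0.464% of all tested genes called, few or no calls would fall in groups of this size, so their absence says little. None was called among 10 tested MHC class II genes, 20 of MHC class I and the immunoproteasome, 32 lysosomal hydrolases, 18 complement components and receptors, 26 immediate early genes, 14 genes of iron handling, 24 of glycolysis and hypoxia, 17 of TGF-β signalling, 7 tight junction genes of the lining, 22 macrophage growth factor receptors and transcription factors and 76 cytosolic ribosomal proteins. Ribosomal protein genes were fitted higher in 63 of 76 cases with a median log2 fold change of 0.15, and lysosomal genes in 22 of 32 with a median of 0.11. Genes of glycolysis and hypoxia were fitted higher in 18 of 24 cases (median 0.28). Fitted lower were 14 of 17 genes of TGF-β signalling (median -0.22) and 7 of 10 MHC class II genes (median -0.32). Across all tested genes 47.5% were fitted higher and 51.9% lower. DESeq2 called 2 ribosomal protein genes higher, and 1 MHC class II gene higher and 1 lower. It also called 1 gene lower in each of the MHC class I, complement and immediate early groups.

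In the MHCII+CD11c- subset the same comparison called 112 genes (1.06%), and in the MHCII+CD11c+ subset 71 (0.673%), with libraries of 245903 to 985186 and of 671244 to 2172358 counts. Of the 49 genes of LYVE1+CX3CR1+ macrophages, 16 were also called in MHCII+CD11c-, 8 in MHCII+CD11c+ and 7 in both, and 32 in neither. The fitted direction was the same in all 3 subsets for 46 of the 49, including all 26 that rose, against 37.5% of all tested genes. The exceptions were Rgl1, Abcc1 and Ednrb. Msr1, Ms4a6c, Ms4a6d, Fcgr1, Hspa5, Pdia6 and Abca9 were called in all 3 subsets.

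The fitted change was larger in the LYVE1+CX3CR1+ subset than in both MHCII+ subsets for 19 of the 26 genes that rose and 18 of the 23 that fell, genes that were chosen by their call in the former. None of the differences for the genes named next passed the test. Ccl6 had log2 fold changes of 1.73 (SE 0.21) there, 0.53 (SE 0.20) in MHCII+CD11c- and 0.57 (SE 0.20) in MHCII+CD11c+ macrophages, and the differences had edgeR adjusted p = 0.34 and 0.641. Fcgr2b had log2 fold changes of 1.05, 0.36 and 0.50 (differences, edgeR adjusted p = 0.61 and 1), and Xdh of 1.02, 0.14 and 0.31 (0.445 and 0.997). Ednrb had log2 fold changes of -1.18, 0.25 and 0.24 (differences, edgeR adjusted p = 0.345 and 0.641). Ms4a6d was called in each subset, with log2 fold changes of 1.90, 2.21 and 1.78; the differences were -0.31 (SE 0.30) and 0.12 (SE 0.29), with edgeR adjusted p = 0.888 and 1.

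The difference of responses between LYVE1+CX3CR1+ and MHCII+CD11c- macrophages was called for none of the 10550 genes (0%, edgeR; 687 with an unadjusted p under 0.05, and 8 called by DESeq2). The lowest adjusted p, 0.108, was that of H2-Ab1 and H2-Aa, MHC class II genes that are nearly absent from the LYVE1+CX3CR1+ subset. Between LYVE1+CX3CR1+ and MHCII+CD11c+ macrophages the difference was called for 1 gene (0.00948%), Vcan, the gene for the proteoglycan versican. Vcan was at 467, 498 and 579 CPM in untreated and 433, 394.5 and 558 CPM in IC LYVE1+CX3CR1+ libraries, against 10.98, 11.77 and 12.95 CPM and 43.0, 45.4 and 60.6 CPM in MHCII+CD11c+ libraries. The level in MHCII+CD11c+ cells rose in all IC libraries but stayed far below that of LYVE1+CX3CR1+ cells, whose groups overlapped. The log2 fold changes were -0.16 and 2.08, a difference of -2.23 (SE 0.33, edgeR adjusted p = 0.00494). The call was lost without untreated library 1 or IC library 3 of the MHCII+CD11c+ subset, which left 0 genes called. In MHCII+CD11c+ libraries Lyve1 was at 327 to 437 CPM untreated and 996 to 1226 CPM with IC. Vsig4 was at 34.6 to 67.4 CPM and 90.8 to 139 CPM there, whereas Cx3cr1 overlapped (57.6 to 78.4 CPM and 73.7 to 143 CPM). Ly6c2, a gene for the sort marker Ly6C, was at 0.654 to 4.705 CPM untreated and 13.31 to 15.35 CPM with IC in the same libraries. The part of a changed mix of cells in the Vcan values was not tested.

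**Figure D5:**
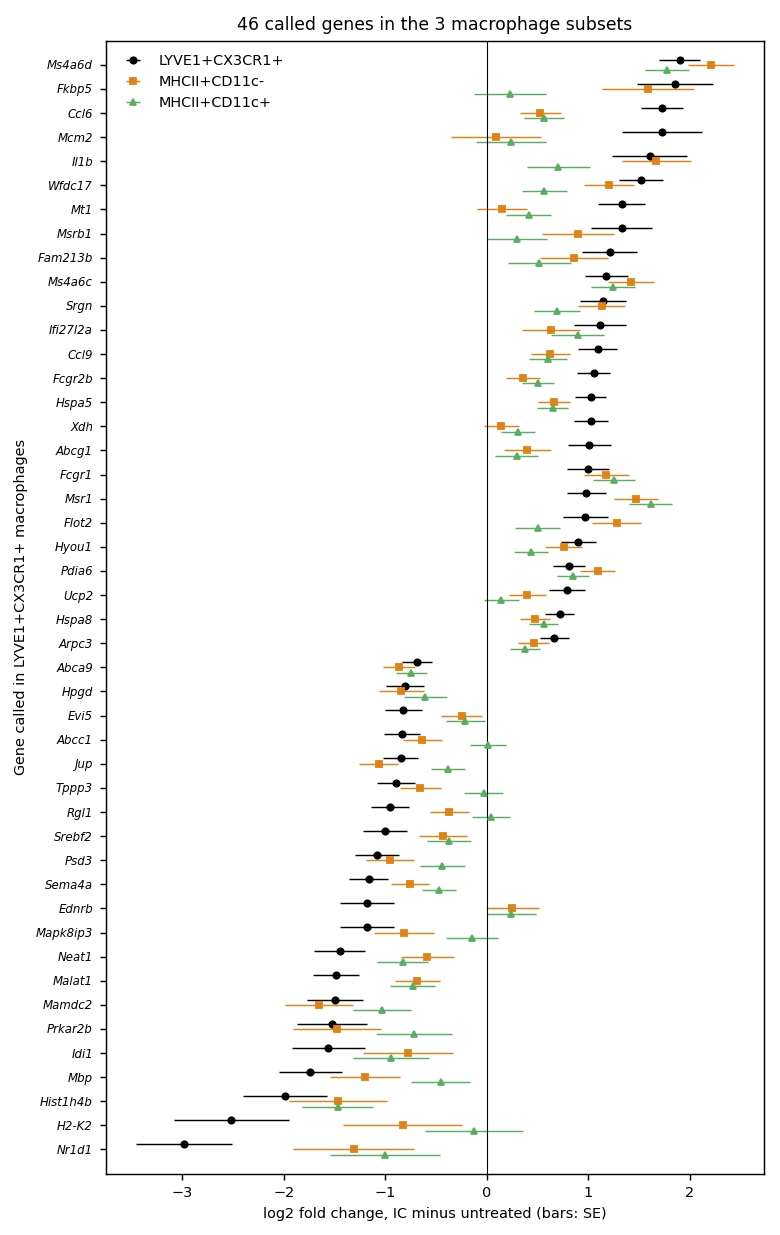
Log2 fold changes with IC (horizontal axis, bars are SE) of 46 of the 49 genes called in LYVE1+CX3CR1+ macrophages, 1 gene per row, in that subset (circles) and in the MHCII+CD11c- (squares) and MHCII+CD11c+ (triangles) subsets. The 25 genes shown that rose lie above 0 in both MHCII+ subsets, and Ednrb (-1.18, against 0.25 and 0.24) lies on the other side of 0.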

How the data were processed

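RNA of sorted synovial macrophages was sequenced as paired-end reads (total RNA, stranded pico-input kit). The authors used Trim Galore to trim the reads and FastQC to check them, aligned with HISAT2 to mm10 and counted them per gene with featureCounts, and deposited the raw counts per gene symbol without normalization. Versions, annotation and strand setting are not given in the sources used here, so genes that overlap, run antisense or share near-identical sequence have uncertain counts. The combined table was not used.

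Groups were taken from the sample labels. Of 24421 symbols, 10550 passed filterByExpr (minimum count 10, minimum total count 15) and 24300 matched RefSeq gene names (GRCm38.p6). TMM-scaled CPM and the quasi-likelihood test were computed with edgeR 4.0.16 (limma 3.58.1, R 4.3.3) over all 18 libraries in 6 groups, which share 1 estimate of the spread per gene. Differences of responses were contrasts of the same fit. P-values were adjusted by Benjamini-Hochberg over all genes tested, with a threshold of 0.05, and were two-sided. The method was checked on simulated counts. DESeq2 1.42.0, a surrogate variable (sva 3.50.0), a replicate block, other filters and fits that leave out libraries were alternatives.

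Called genes with the largest changes, called members of 51 gene lists, Fc receptors, chemokines and markers were named. The genes and lists were chosen with earlier results of these data known. Some called genes are not reported here by name. List counts and medians have no test of their own. Without molecular identifiers reads do not count molecules, so the 3-count floor covers counting error only. Replicates of the subset differed by a chi-square of at least 3.43 per gene, and no libraries were duplicates.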

Additional observations from a re-analysis of the deposited data

Results flagged for a closer look

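The response of Vcan, the versican gene, differed between subsets: the log2 fold change with IC was -0.16 in LYVE1+CX3CR1+ and 2.08 in MHCII+CD11c+ macrophages, a difference of -2.23 (SE 0.33, edgeR adjusted p = 0.00494; higher with IC in 3 of 3 MHCII+CD11c+ libraries). It was singled out because the difference itself was tested and passed. DESeq2 also called it (adjusted p = 1.45e-06), together with Mpeg1 and Lpl. The edgeR call was lost without untreated library 1 or IC library 3 of the MHCII+CD11c+ subset. Lyve1, Vsig4 and Ly6c2 were also higher in every IC than in every untreated MHCII+CD11c+ library, and the part of a changed mix of cells was not tested.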

How the results depend on the processing

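All 49 genes kept their direction under every alternative run, and 11 kept their call in each of them where an adjusted p was given. The call count of 49 (26 higher, 23 lower) became 154 (80 and 74) with DESeq2, which gave no adjusted p for 4 of the 49 and called the other 45, 160 (87 and 73) without a filter on low counts, 272 (153 and 119) in a fit to the 6 libraries alone, which included all 49, 99 (54 and 45) with 1 surrogate variable and 112 (62 and 50) without the 2 smallest libraries, an alternative chosen after the data were seen. Some genes named above as not passing the edgeR test were called by DESeq2. They included Fcer1g, Fgr, Ms4a6b, Mrc1 and Cyp51 (DESeq2 adjusted p = 0.0379, 0.00977, 0.0286, 0.00977 and 0.0107). Per2, Mylip, Nr3c1, Hspa1a and Hspa1b were also among them (DESeq2 adjusted p = 0.00786, 0.0286, 0.0233, 0.0439 and 0.0469), as were Hsp90b1 and Calr (0.0338 and 0.00586). Leaving out 1 library of the subset gave 13 to 53 calls, 8 to 23 higher and 5 to 30 lower. The difference from MHCII+CD11c- macrophages, with 0 calls, gave 8 with DESeq2, 20 without a filter, 1 with a surrogate variable and 0 to 1 when a library was left out. The difference from MHCII+CD11c+ macrophages, with 1 call, gave 3 with DESeq2, 27 without a filter, 4 in a fit to the libraries compared, 2 with a surrogate variable, 3 without the 2 smallest libraries and 0 to 1 when a library was left out. The cause of these shifts was not tested. Same-numbered untreated and IC libraries of the subset had r from -0.05 to 0.09, against -0.12 to 0.06 for libraries of different numbers. These values are too few and too near 0 to settle whether the numbers pair the conditions. Within a condition, r between same-numbered libraries of LYVE1+CX3CR1+ and an MHCII+ subset was positive in all 12 cases (0.06 to 0.34) and above 0.1 in 7, so the differences between subsets were also fitted with such a block. With the replicate block 60 genes were called (30 higher, 30 lower), 0 and 1 for the differences, and with a replicate block within condition 0 and 2. Libraries of 1509070 to 2047260 counts limit what can be seen for genes near 2 CPM.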
